A study of Mus musculus with 26 samples.

Results

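Baseline translational efficiency was described here as the ratio of ribosome footprints to RNA of each gene in unstressed NIH3T3 cells, a long-established fibroblast line from mouse embryos. A gene was included where it had 50 or more expected counts in each of 4 libraries, and 6674 of the 19941 genes present in both deposited tables (33.5%) met that minimum. The 4 libraries were the 2 footprint libraries and the 2 polyA-selected RNA libraries that the labels give as the common control for H2O2 and KCl, with no agent named for them. The series holds 26 libraries in 13 groups of 2, from cells under heat, oxidative stress (H2O2) or osmotic stress (KCl) and their controls, and its title asks how transcription under stress runs on into neighbouring genes. A second RNA control, for heat, served only as an alternative denominator. The labels do not say whether replicates came from separate cultures, so every test measures the spread between 2 libraries of a kind, which may be technical.

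Ribosome profiling sequences the stretches of mRNA that ribosomes cover. Divided by the RNA level, the footprints of a gene give its ribosome occupancy, a common stand-in for how efficiently an mRNA is translated, although slow elongation raises it as well as frequent initiation. Known influences include upstream reading frames that capture scanning ribosomes, iron-responsive elements bound by iron regulatory proteins, and the terminal oligopyrimidine (TOP) start of ribosomal protein mRNAs, through which growth signals act. Mitochondrial mRNAs are translated by a separate set of ribosomes inside the organelle.

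Footprint libraries held 3925402 and 3603755 expected counts and RNA libraries 45244430 and 35775040. A gene in the set had a median of 193 footprint counts and 3006 RNA counts, so the footprints limited the precision. Replicates correlated across genes (which are not independent replicates) at r = 0.981 for footprints and 0.998 for RNA on the log2 TPM scale, and the ratio itself at r = 0.933. Fibroblast markers were present, with 15 of 16 at 1 TPM or more in both RNA libraries. Of the other lists, 1 of 8 epithelial, 0 of 6 endothelial, 1 of 7 blood, 1 of 5 skeletal muscle and 1 of 4 neuronal markers reached that level, and their summed RNA was at most 15.5 TPM per list against at least 11458 TPM for fibroblast markers.

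The ratio was taken per length, from expected counts with the gene lengths that the deposited TPM values imply, and is given on the log2 scale with 0 at the typical gene. From the 5th to the 95th percentile of genes it ran from -1.55 to 1.56, an 8.63-fold range, against a median standard error of 0.13. With edgeR's quasi-likelihood test at an adjusted p of 0.05, 4323 genes (64.8%) differed from the typical gene. That count fell with either RNA replicate left out and rose with either footprint replicate left out. In such fits the spread comes from the 2 libraries of the other kind alone. The median standard deviation between replicates on the log2 TPM scale was 0.163 for footprints and 0.046 for RNA. Genes past the test on all 4 libraries and at least 2-fold above the typical gene are called well occupied below. Those past it and at least 2-fold under the typical gene are called poorly occupied. By this, 809 genes (12.1%) were well and 904 (13.5%) poorly occupied. The place of the typical gene depends on the scaling. On the unadjusted TPM scale the median ratio was -0.47 instead of -0.01, and the well occupied genes were 17.9% of all calls instead of 47.2% (396 well and 1812 poorly occupied). Each class below is therefore described relative to all 6674 genes, of which 12.1% were well and 13.5% poorly occupied.

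**Figure D1:**
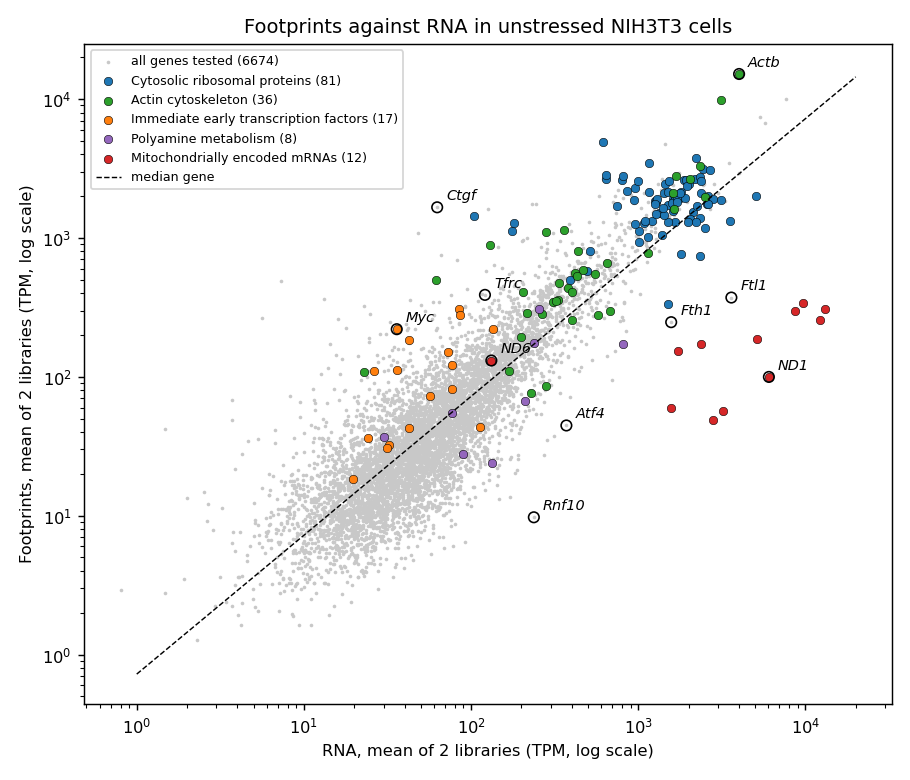
Mean footprint level against mean RNA level (TPM, both axes on a log scale) of the 6674 genes, with 5 gene classes in colour and ringed genes named; the dashed line is the median gene. Mitochondrially encoded mRNAs lie far below the line except ND6, while most ribosomal protein, actin and immediate early genes lie above it.

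How much of the ratio rests on length has to be read first. Expected count divided by TPM gives a gene's length only up to an unknown scale per library. The factor between its lengths in the footprint and RNA tables could therefore only be compared between genes. It was high for mitochondrial mRNAs, which have almost no untranslated sequence, and lower for most other genes. Set to 100% at those mRNAs, the factor is called the implied coding share of the transcript below. It reached 161% in the highest gene, which a true share cannot, so it is approximate. That footprint lengths are coding lengths is read from the values and is not stated in the sources used here. In the 25% of genes with the lowest implied share (under 37.3%) the median log2 ratio was 0.60, and it was 0.07, -0.24 and -0.44 in the next groups of equal size. When the same counts were compared without any length, the order turned round, with medians of -0.40, -0.07, 0.07 and 0.26. Across genes the ratio correlated with the implied share at r = -0.47 per length and 0.28 without length, and with the RNA level at r = -0.01; these are descriptions over genes that share 4 libraries. Without length 679 genes (10.2%) were well and 864 (12.9%) poorly occupied. Only 354 of the 809 well occupied and 501 of the 904 poorly occupied genes kept their call, 17 went from well to poorly occupied and 0 the other way. For the genes and classes where the result of the counts alone matters most, it is given below as "without length".

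**Figure D2:**
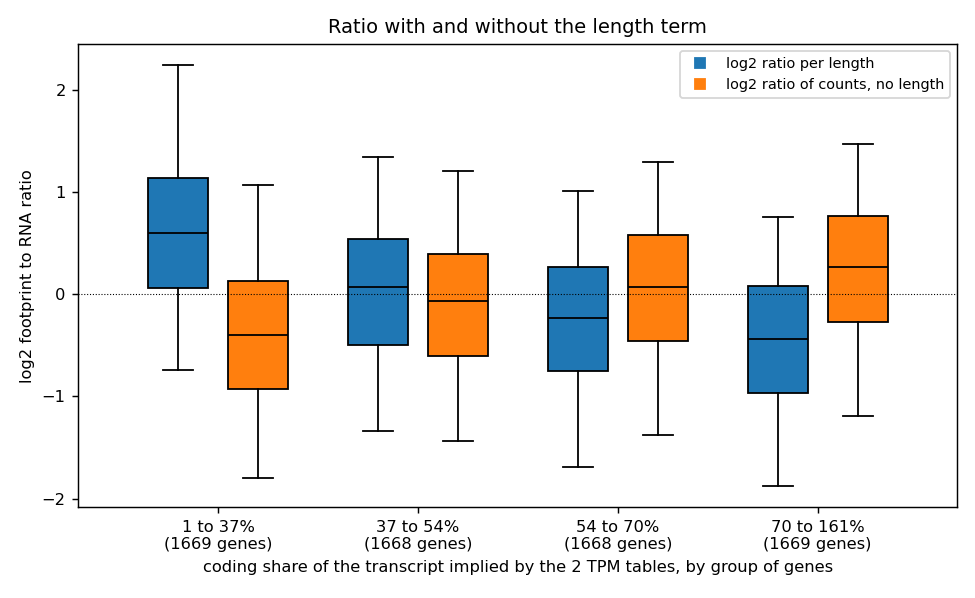
Log2 footprint to RNA ratio in 4 equal groups of the genes by implied coding share of the transcript, per length and from counts without length (boxes: middle 50% and median; whiskers: 5th to 95th percentile). The per-length medians go down from 0.60 to -0.44 and the medians without length go up from -0.40 to 0.26.

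Mitochondrially encoded mRNAs stood lowest. These mRNAs encode the core subunits of the respiratory chain, and 12 of 13 met the count minimum. Their median log2 ratio was -4.39, and 11 of 12 were poorly occupied, per length and without it. ND1, a complex I subunit, had 108 and 92.0 TPM in the footprint libraries against 6580 and 5519 TPM in the RNA libraries (log2 ratio -5.47 ± 0.17 SE, 44.2-fold below the typical gene, adjusted p = 8.4e-05). COX1, the catalytic subunit of cytochrome oxidase, had 396 and 282 footprint TPM against 10526 and 8873 RNA TPM (-4.39 ± 0.22). No footprint value of either gene came within 10-fold of an RNA value. Among the called members ND4L, another complex I subunit, was closest to the rest, at -3.04. The exception was ND6, the complex I subunit encoded on the opposite mitochondrial strand, with 189 and 72.8 footprint TPM against 119 and 146 RNA TPM (0.45 ± 0.38, adjusted p = 0.338). Its footprint replicates lay on either side of its RNA replicates, so the per-length ratio had no clear direction; without length it was well occupied (1.47, adjusted p = 0.018). Together the 13 genes held 7.57% and 6.49% of all RNA TPM and 0.27% and 0.18% of all footprint TPM.

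Nuclear genes for the same organelle lay a little above the typical gene by their medians. Of 77 nuclear respiratory chain subunits, 12 were well (15.6%, near the 12.1% of all genes) and 0 poorly occupied (median 0.36). Of 72 mitochondrial ribosomal proteins 12 were well (16.7%) and 3 poorly occupied (median 0.26). Without length 17 and 10 were well occupied, of which 4 in each class were among the 12 per length. Cycs, which encodes cytochrome c, was at 517 and 878 footprint TPM against 79.8 and 84.0 RNA TPM (3.55 ± 0.27), but its implied coding share was only 7.65% and without length it missed the call (0.85). Ndufa11, a complex I subunit, kept it (3.31 per length, 1.39 without). Mrpl35, a large-subunit protein of the mitochondrial ribosome, was the highest of its class at 3.66 and kept the call without length at 1.73. Mrps15, a small-subunit protein, was the lowest at -1.34 and lost it (-0.64). The lowest respiratory member, Atp5j of the ATP synthase stalk, was at -0.75, short of the threshold, though at -1.20 on the TPM scale it passed.

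Ribosomal protein mRNAs were above the typical gene as a class. Of 81 tested members 22 were well and 2 poorly occupied (27.2% and 2.47% against 12.1% and 13.5% of all genes), 66 lay above the median gene, and the class median was 0.68. Without length, 47 were well occupied and the median was 1.16, so here the length term lowered the class. The class took 14.4% and 15.9% of all footprint TPM and 13.1% and 13.6% of all RNA TPM. Members differed widely. Rps6, a small-subunit protein and a target of S6 kinase, had 1824 and 1882 footprint TPM against 1267 and 1242 RNA TPM (1.02 ± 0.11), which sat at the threshold: without footprint replicate 2 it was 0.97 and missed it. Rplp0, the stalk base protein, had 1126 and 1654 footprint TPM against 2377 and 2294 RNA TPM (-0.29 ± 0.21, adjusted p = 0.261). The highest, Rps15a, had 1492 and 1386 footprint TPM against 109 and 99.5 RNA TPM (4.24 ± 0.12), but its implied coding share was 5.96% and without length it stood at 1.18. Rpl37 (3.44), Rpl22 (3.14) and Rpl31 (2.51) also kept the call without length, and Rps20 (3.27) did not. These 4, like other class members named below that are neither on the preset list nor the highest or lowest of their class, were picked after their values were seen.

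The 2 poorly occupied ribosomal protein genes were Rps27 and Rps12. Rps27 had 176 and 489 footprint TPM against 1503 and 1521 RNA TPM (-1.73 ± 0.42), so its footprint replicates differed by more than 2-fold, and the ratio ranged from -2.67 (without footprint replicate 2) to -1.14 (without footprint replicate 1). A near-identical copy, Rps27rt, had 1435 and 1466 footprint TPM against 86.8 and 116 RNA TPM and was among the 8 highest genes named by rule (4.30). Summed over Rps27 and Rps27rt the log2 TPM ratio was 0.62 above the median gene, so neither gene's own value can be read by itself. Rps12 was at -1.21 and lost the call without length (-0.65). Rpl41, the shortest ribosomal protein, is listed at 0 footprint counts in both libraries beside 25700 and 21501 RNA counts, and was not in the set.

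Sequences near the start sites of ribosomal protein genes are shown because the TOP run is the sequence feature this class is known for. The shown genes were picked, among those with a run, to span the range of ratios. RefSeq's promoter table (GRCm38.p6) held 60 of the ribosomal protein genes. A run of 8 or more C and T bases that begins with C was sought on the gene's strand in a window from 20 bases before to 30 bases after the annotated start, a window chosen after the sequences were seen since annotated starts do not always match the used one. Such a run was found in 34 of the 60 genes (56.7%), against 17.04% of the 27025 entries of the table. In the 7 genes shown, in the order below, its first base lies at -2, 9, -1, -12, -4, -18 and -15 relative to the annotated start. The printed bases are placed around the run and not around the start, and the runs of Rpl31 and Rps15a lie before it. Capitals mark the longest run, 30 bases are given 5′ to 3′, and the intervals are Rps27 at chr3:90213631-90213660 (minus), Rps12 at chr10:23787181-23787210 (minus), Rps6 at chr4:86857349-86857378 (minus), Rpl7a at chr2:26910790-26910819 (plus), Rpl27a at chr7:109519186-109519215 (plus), Rpl31 at chr1:39367825-39367854 (plus) and Rps15a at chr7:118116143-118116172 (minus).
Rps27: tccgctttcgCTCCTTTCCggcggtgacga
Rps12: caccgccggCCTTTTCCCCTgccgccgccg
Rps6: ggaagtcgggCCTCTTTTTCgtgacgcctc
Rpl7a: caattCCCTCTTCTTTCTTTCTCCagcagc
Rpl27a: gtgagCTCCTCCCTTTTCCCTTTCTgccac
Rpl31: tcgccacaCCTCTTCCTCCTCgcctccccg
Rps15a: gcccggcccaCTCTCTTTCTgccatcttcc
These 7 genes run from -1.73 (Rps27) and -1.21 (Rps12) through 1.02 (Rps6), 1.24 (Rpl7a), 2.26 (Rpl27a) and 2.51 (Rpl31) to 4.24 (Rps15a). Ribosomal protein genes with a run had a median ratio of 0.70 and those without one 0.67. Among tested genes outside this class and the other TOP mRNAs, the medians were 0.00 with a run (940 of 5342 genes) and -0.03 without.

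Other factors of translation were nearer the typical gene. Of 21 other TOP mRNAs 2 were well (9.52%, against 12.1% of all genes) and 0 poorly occupied (median 0.51, and 11 well occupied without length). Eef1b2, a subunit of the exchange factor that reloads eEF1A, led them with 1015 and 827 footprint TPM against 279 and 294 RNA TPM (2.14 ± 0.13). Eef1a1 itself, which carries aminoacyl-tRNAs to the ribosome, had 10267 and 9908 footprint TPM against 7783 and 7545 RNA TPM (0.85 ± 0.13), and Eef2, the translocation factor, 1628 and 1973 against 1909 and 1994 (0.34 ± 0.15). Neither passed the fold threshold per length, and both did without length (1.46 and 1.06). Tpt1 and Npm1 were at 0.02 and 0.28. Pabpc1, the polyA-binding protein, was the lowest of the list, with 406 and 386 footprint TPM against 983 and 1063 RNA TPM (-0.91 ± 0.11, adjusted p = 0.0010); at -1.37 on the TPM scale it was past the fold threshold.

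Of 39 initiation factors 5 were well (12.8%, near the 12.1% of all genes) and 0 poorly occupied (median 0.30). Eif1, which monitors start codon choice, was highest with 1890 and 1986 footprint TPM against 826 and 798 RNA TPM (1.71 ± 0.11). Eif4e, the cap-binding protein, was at 1.19, and Eif4a1, the helicase of the same complex, at 1.05; without length Eif4a1 alone of the 5 kept the call. Eif4g3, a scaffold of that complex, was lowest at -0.91, or -1.20 without footprint replicate 2. The 20 aminoacyl-tRNA synthetases lay in a narrow band, from Hars (-0.29) to Sars (0.87), with 0 well and 0 poorly occupied genes and a median of 0.19; without length 5 were well occupied.

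**Figure D3:**
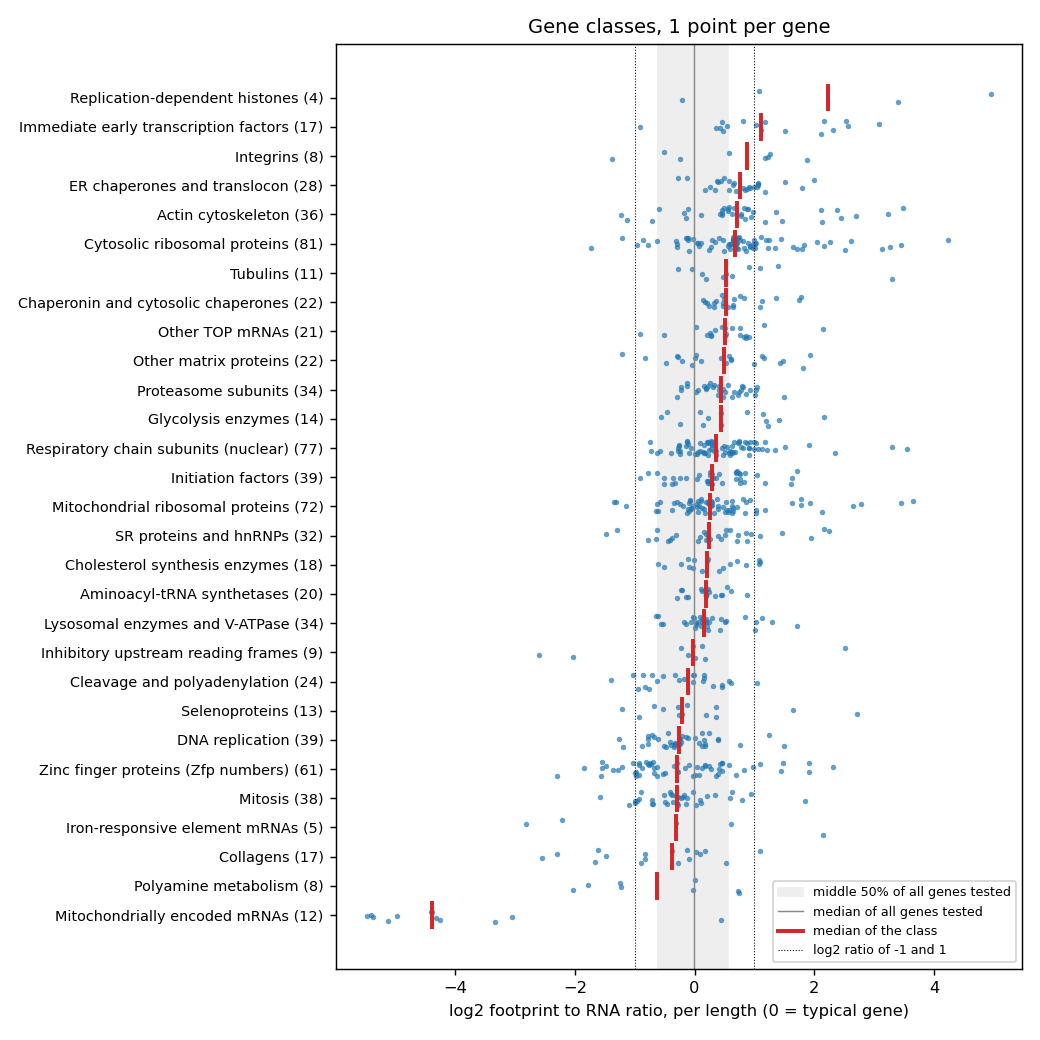
Log2 footprint to RNA ratio per length of each member (points) of 29 gene classes with tested genes, number of tested genes in brackets, red bars at the class medians. The grey band is the middle 50% of all 6674 genes, -0.60 to 0.56; class medians run from -4.39 for mitochondrially encoded mRNAs to 2.24 for the 4 tested histone genes.

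Genes for folding and turnover of proteins had class medians above the typical gene. All 22 tested chaperonin subunits and cytosolic chaperones lay above the median gene (median 0.53). Among these, 5 were well (22.7%, against 12.1% of all genes) and 0 poorly occupied. Ptges3, the p23 co-chaperone of Hsp90, was highest with 928 and 696 footprint TPM against 315 and 335 RNA TPM (1.78 ± 0.15), and missed the call without length (0.52). Hspb1, a small heat shock protein, was at 1.74 and kept it, while Hsp90ab1, the constitutive Hsp90, was near the typical gene at 0.24 per length and well occupied without length (1.02). Among 28 ER chaperones and translocon subunits 8 were well (28.6%, against 12.1% of all genes) and 0 poorly occupied, with a median of 0.75. Sec61g, a small subunit of the translocon pore, led with 417 and 459 footprint TPM against 157 and 143 RNA TPM (2.00 ± 0.12), and Sec61a1, its main subunit, was at 1.51. Hspa5, the ER Hsp70 also called BiP, had 1846 and 1335 footprint TPM against 1295 and 1190 RNA TPM (0.81 ± 0.17), short of the threshold per length but past it without footprint replicate 2 (1.00) and without length (1.40). The 34 proteasome subunits had 4 well (11.8%, close to the 12.1% of all genes) and 0 poorly occupied genes (median 0.44), from Psmc4 (-0.29) to Psmb3 (1.5). In the near-identical pair of proteasome activator genes Psme2 and Psme2b, footprints and RNA could be split differently between the copies, and the pair together was at -1.02.

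Metabolic enzymes varied by pathway. Of 14 glycolysis enzymes 5 were well (35.7%, against 12.1% of all genes) and 0 poorly occupied (median 0.44). Gapdh had 4832 and 4671 footprint TPM against 1409 and 1492 RNA TPM (2.17 ± 0.12), and all footprint values were over 3 times the RNA values. Ldha (1.42), Eno1 (1.19) and Hk2 (1.14) were also well occupied, while Pfkm, the muscle-type phosphofructokinase, was lowest at -0.56. The 18 cholesterol synthesis enzymes had 3 well (16.7%, against 12.1% of all genes) and 0 poorly occupied genes (median 0.21, but -0.07 without length). Hsd17b7, a sterol ketoreductase, was highest of them at 1.09 and fell to -0.18 without length, and the lowest, Mvd, was at -0.60. Of 34 lysosomal enzymes and V-ATPase subunits 5 were well (14.7%, near the 12.1% of all genes) and 0 poorly occupied (median 0.15). Npc2, a cholesterol carrier of the lysosome, was highest at 1.72 with an implied coding share of 11.3%, and turned to -0.42 without length. The lowest, the V-ATPase subunit Atp6v0b, was at -0.64.

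The cytoskeleton held some of the best occupied abundant mRNAs. Of 36 actin cytoskeleton genes 10 were well (27.8%, against 12.1% of all genes) and 2 poorly occupied (median 0.72). All 10 kept the call without length. Actb, cytoplasmic beta-actin, had 16129 and 14200 footprint TPM against 3614 and 4411 RNA TPM (2.38 ± 0.16, 5.19-fold). Its relatives Actg1 (2.12) and Acta2 (2.13, smooth muscle actin) were alike in ratio, although near-identical coding sequences can share footprints. The smooth muscle genes Myl9 (3.48), Cnn1 (2.69) and Tagln (2.44) were higher still. The class as a whole held 5.46% and 5.0% of footprint TPM and 2.84% and 3.0% of RNA TPM. The thymosins Tmsb4x and Tmsb10, which sequester actin monomers and have very short coding sequences, were at 0.77 and 0.46 per length but at -1.87 and -1.89 without it; Tmsb4x ranged from -0.09 without footprint replicate 1 to 1.29 without footprint replicate 2. Vim, vimentin, was at 0.45, and well occupied without length (1.04). Of 11 tubulins 3 were well (27.3%, against 12.1% of all genes) and 0 poorly occupied. Tuba1c was at 3.29 beside -0.28 for Tuba1b, 2 genes with nearly the same protein whose footprints can be shared.

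Collagens lay below the typical gene per length but not without it. Of 17 tested collagens 1 was well and 5 poorly occupied (5.88% and 29.4%, against 12.1% and 13.5% of all genes), with a median of -0.38. Without length 2 were well and 2 poorly occupied and the median was -0.05. The main fibrillar chains were near the typical gene: Col1a1 had 1323 and 1486 footprint TPM against 2035 and 2199 RNA TPM (-0.13 ± 0.14), and Col1a2 709 and 640 against 1121 and 1131 (-0.28 ± 0.11). Col3a1 had 72.4 and 23.1 footprint TPM against 211 and 200 RNA TPM (-1.65 ± 0.48). Its footprint replicates differed over 3-fold, so the ratio moved from -2.67 (without footprint replicate 1) to -1.07 (without footprint replicate 2), and without length it was not called (-1.01). Col5a3, a minor fibrillar chain, was lowest at 5.67 and 4.29 footprint TPM against 39.6 and 41.1 RNA TPM (-2.55 ± 0.14). Col7a1, which forms anchoring fibrils, was at -2.30. These 2 alone of the 5 kept the call without length. The well occupied collagen was Col12a1, which coats fibrils, at 1.09; its call was lost with the heat control RNA as denominator (0.16).

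Other matrix proteins had 6 well (27.3%, against 12.1% of all genes) and 1 poorly occupied of 22 (median 0.49). Thbs1, thrombospondin 1, had 2029 and 1996 footprint TPM against 705 and 754 RNA TPM (1.92 ± 0.12). Sparc, a collagen-binding matrix protein, had 2276 and 1354 footprint TPM against 1178 and 1096 RNA TPM (1.13 ± 0.24), and missed the threshold without footprint replicate 1 (0.74), without length (0.48) and with the heat control RNA (0.86). Fn1, fibronectin, was at -0.21. Emilin1, an elastic fibre protein, was lowest at -1.21, at -0.97 without footprint replicate 2 and at -0.47 without length. Of 8 integrin chains, the receptors for these proteins, 4 were well occupied per length and without it (50%, against 12.1% of all genes per length). They were Itgav (1.89), Itga5 (1.26), Itga6 (1.22) and Itga3 (1.18), all alpha chains. Itgb5, a partner of Itgav, was poorly occupied at -1.38 and not called without length (-0.83). The class median was 0.87. With a minimum of 50 counts in RNA alone, 6 of 14 chains were well (42.9%, against 13.7% of all genes) and 3 poorly occupied, with a median of 0.38. There Itga11 (1.51) and the beta chain Itgb3 (1.95) were well occupied, and Itga10 (-1.80) and Itgb4 (-4.60) poorly. The contrast of alpha and beta chains thus depends on the count minimum.

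Per length, genes of the early response to serum were the class with the highest median apart from histones. Of 17 tested immediate early transcription factors 10 were well and 0 poorly occupied (58.8% against 12.1% of all genes), with a median of 1.11 per length and 0.75 without. Without length other classes had higher medians, among them tubulins (1.20) and ribosomal proteins (1.16). Myc had 232 and 208 footprint TPM against 32.8 and 39.1 RNA TPM (3.07 ± 0.13, 8.42-fold). Fosl1 (2.56) and Maff (2.53), partners in AP-1 and small Maf dimers, followed, and Jun had 154 and 149 footprint TPM against 67.7 and 77.8 RNA TPM (1.51 ± 0.11, but 0.75 without length). Jund, the AP-1 member that is made constitutively, was lowest at -0.91, was past the threshold without footprint replicate 2 (-1.11) and without RNA replicate 1, and was poorly occupied without length (-1.58). A count minimum in RNA alone added 7 genes with few footprints to the class. After that 15 of 24 were well occupied (62.5%, against 13.7% of all genes) and 2, Klf4 and Nr4a2, poorly. Of the added genes Egr3, Fos, Atf3 and Fosb were well occupied. The scale also shifted under that minimum: the same 20 aminoacyl-tRNA synthetases had a median of 0.42 there against 0.19. Ratios and calls with the minimum in RNA alone are therefore not on the main scale, wherever they are given. Ctgf, a matricellular target of YAP, had 1755 and 1570 footprint TPM against 57.3 and 68.1 RNA TPM (5.19 ± 0.15, 36.4-fold). Ctgf and Phlda1 (4.27) are named because they are among the 8 highest genes by rule, and Ccnd1, cyclin D1, was at 2.24. Footprint TPM of Ctgf exceeded its RNA TPM in every pair of libraries, by over 10-fold.

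**Figure D4:**
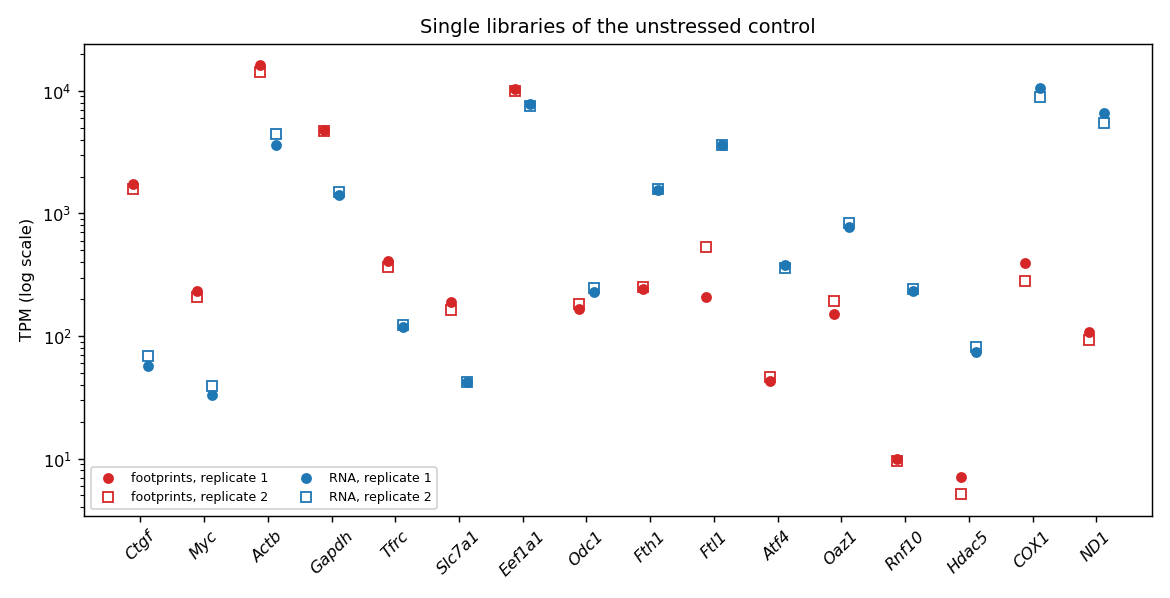
Footprint and RNA levels (TPM, log scale) in each of the 4 control libraries for 16 named genes, red for footprints and blue for RNA, filled for replicate 1 and open for replicate 2. Replicates of a kind lie close together except for the footprints of Ftl1, 209 and 536 TPM, and the distance between red and blue changes side from Ctgf to ND1.

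Iron genes showed opposite ratios. Under low iron, iron regulatory proteins block translation of mRNAs with the element in the 5′ leader and protect Tfrc mRNA through elements in its 3′ end. Fth1, ferritin heavy chain, had 244 and 251 footprint TPM against 1552 and 1597 RNA TPM (-2.21 ± 0.10, 4.63-fold below the typical gene). Ftl1, ferritin light chain, had 209 and 536 footprint TPM against 3620 and 3595 RNA TPM (-2.81 ± 0.44), ranging from -3.68 (without footprint replicate 2) to -2.27 (without footprint replicate 1). Tfrc, the transferrin receptor, had 412 and 366 footprint TPM against 119 and 123 RNA TPM (2.14 ± 0.11). Both ferritins had less footprint than RNA TPM in all library pairs and Tfrc had more, and all 3 kept their calls without length. Slc11a2, a metal ion transporter, was nearer the typical gene at 0.61.

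Polyamine genes were spread from low to above the typical gene. Polyamine synthesis is held in check by antizymes, whose mRNAs need a ribosomal frameshift, and by reading frames in the leader of Amd1. Of 8 tested members 4 were poorly and 0 well occupied (13.5% and 12.1% of all genes), the median was -0.63, and all 4 kept the call without length. With the minimum in RNA alone 5 of 11 were poorly occupied (45.5%, against 18.3% of all genes) and the median was -0.11. That minimum admits genes through their RNA, so this count is no support. Oaz1, antizyme 1, had 151 and 193 footprint TPM against 781 and 842 RNA TPM (-1.78 ± 0.16). Oaz2 was at -1.22, and Sat1, the spermidine acetyltransferase, at -1.24, or -0.96 without footprint replicate 2 and -0.63 with the heat control RNA. Amd1, adenosylmethionine decarboxylase, had 26.0 and 21.8 footprint TPM against 137 and 130 RNA TPM (-2.02 ± 0.13). Its copy Amd2 held 23.6 and 44.6 footprint TPM and 1.13 and 0.88 RNA TPM, and summed over both copies the ratio was -0.74 relative to the median gene, so the call of Amd1 rests on how reads were split. Odc1, ornithine decarboxylase, was at the typical gene with 167 and 181 footprint TPM against 229 and 247 RNA TPM (0.01 ± 0.11), and so was Azin1, the antizyme inhibitor (-0.03). Sms, spermine synthase, was above it at 0.75.

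The count minimum removed most of the low members among mRNAs with known inhibitory upstream reading frames. Of 15 such genes 9 were tested, with a median of -0.03. Of the 9, 1 was well and 2 poorly occupied (11.1% and 22.2%, against 12.1% and 13.5% of all genes). Atf4, the transcription factor of the integrated stress response, had 42.9 and 46.4 footprint TPM against 383 and 361 RNA TPM (-2.60 ± 0.12, 6.07-fold below the typical gene). The others called were Amd1, with the limit given above, and Slc7a1, an arginine transporter, which was well occupied with 188 and 163 footprint TPM against 42.2 and 42.4 RNA TPM (2.51 ± 0.11). Ppp1r15b (-0.11), Eprs (0.17) and Ifrd1 (-0.23) were near the typical gene, and Eprs was well occupied without length (1.13). With a minimum of 50 counts in RNA alone all 15 were tested, 8 were poorly occupied (53.3% against 18.3% of 10837 genes) and the median was -1.59. Leaving out Cebpa, which had 0 footprint counts, 7 of 14 were poorly occupied and the median was -0.80. Under that minimum genes enter through their RNA, the side on which a low ratio is high, so neither count is support. Slc35a4, a transporter-family gene, had 18 and 29 footprint counts beside 6118 and 4875 RNA counts (-3.37 ± 0.22). Ddit3, the stress factor CHOP, had 10 and 7 beside 948 and 748 (-2.61 ± 0.25), Ppp1r15a, the phosphatase subunit GADD34, 20 and 20 beside 1154 and 979 (-2.54 ± 0.18), and Atf5 29 and 57 beside 2331 and 2119 (-1.59 ± 0.28). All 4 had fewer than 60 footprint counts in each library.

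Selenoproteins, whose mRNAs recode a stop codon as selenocysteine, were also thinned by the minimum. Of 13 tested, 2 were well and 1 poorly occupied (15.4% and 7.69%, against 12.1% and 13.5% of all genes), with a median of -0.21. Gpx4, a lipid peroxidase, had 204 and 311 footprint TPM against 807 and 825 RNA TPM (-1.20 ± 0.21), or -0.91 without footprint replicate 1 and -0.67 without length, where it was not called. Ept1, also named Selenoi, was highest at 2.71. With the minimum in RNA alone, 4 of 19 were poorly occupied (21.05%, near the 18.3% of all genes). Among them were Sepw1 (7 and 8 footprint counts beside 1621 and 1329 RNA counts, -2.89 ± 0.24) and Sephs2, which makes the selenium donor (-2.14 ± 0.15). Genes enter there through their RNA, so that count is no support. Symbols of this family differ between the tables, and with synonymous rows summed the class median turned to 0.29 above the median gene.

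By their medians per length, genes for nuclear processes lay at or below the typical gene, except for splicing factors. Of 32 SR proteins and hnRNPs 5 were well (15.6%, near the 12.1% of all genes) and 2 poorly occupied (median 0.24). Without length 1 was well occupied and none of the 5 kept the call. Hnrnpd, an AU-rich element binding protein, was highest with 302 and 274 footprint TPM against 76.0 and 90.2 RNA TPM (2.25 ± 0.13), with an implied coding share of 12.8% and 0.29 without length, and Srsf1 fell likewise from 2.16 to 0.10. Hnrnpul1 was lowest at -1.47, and at -0.79 without length it was not called. Of 39 DNA replication genes 2 were well and 2 poorly occupied (median -0.26), with Rrm2, the regulated subunit of ribonucleotide reductase, at 1.49 and Rfc1, the large clamp loader subunit, at -1.26 (-0.76 without length, not called). Of 38 mitosis genes 1 was well and 2 poorly occupied (median -0.30), with Cdk1 at 1.84 and Cdc25b, a phosphatase that activates it, at -1.58. The medians of these 2 classes turned positive without length, at 0.18 and 0.12. The 24 cleavage and polyadenylation genes ran from Rbbp6 (-1.40, or -0.50 without length, where it was not called) to Cpsf6 (1.04, or 0.60 without footprint replicate 2 and -0.15 without length), with a median of -0.11.

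Zinc finger genes lay below the typical gene by their median. Of 330 Zfp genes with 50 or more counts in RNA, 61 had enough footprints to be tested. Of these 6 were well and 11 poorly occupied (18.0% poorly against 13.5% of all genes), with a median of -0.29. With the minimum in RNA alone, 105 of 330 (31.8%) were poorly occupied, against 18.3% of all genes, and the median was -0.69. With that minimum a gene enters through its RNA, the side on which a low ratio is high, so this count is no support. Zfp469 was lowest of those tested, with 1.69 and 1.59 footprint TPM against 10.6 and 11.5 RNA TPM (-2.29 ± 0.12). Zfp706 was highest at 2.31, but its implied coding share was 3.25% and it was poorly occupied without length (-1.63).

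The 10 lowest nuclear genes that were poorly occupied per length and without it, otherwise under the rule for named genes, were listed after the values were seen. They were the ubiquitin ligase Rnf10, the kinases Mast2 (-3.36) and Csnk1g2 (-3.19), the diacylglycerol kinase Dgkz (-2.98), the histone deacetylase Hdac5 (-3.22), the transcriptional regulators Nfatc4 (-3.09) and Cic (-2.83), the kinesin Kif1c (-3.02), Rsrp1 (-2.87) and Ftl1, given above. Rnf10, which modifies ribosomal proteins, was the lowest of them with 9.98 and 9.49 footprint TPM against 233 and 241 RNA TPM (-4.15 ± 0.12, 17.8-fold below the typical gene). Among single genes of wide interest, Hif1a was at 0.49, Mdm2 at -0.24 and Cdkn1b at -0.15, and the last was poorly occupied without length (-1.35).

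Histone genes fell out of the set on the RNA side. Replication-dependent histone mRNAs end in a stem-loop in place of a polyA tail, and the RNA libraries were polyA-selected. Of 64 genes in both tables that met the minimum in footprints but not in RNA, 51 (79.7%) were such histones. Hist1h4d, for example, had 5837 and 4910 footprint counts beside 7 and 8 RNA counts. The 66 histone genes together held 7.33% and 10.4% of all footprint TPM but 0.0760% and 0.0783% of RNA TPM. Many encode nearly the same protein, so single genes are uncertain. The 4 tested members ran from H1f0 (-0.21, and poorly occupied at -1.37 without length), a replacement histone that the list's name pattern took in, to Hist1h1c, with 840 and 1315 footprint TPM against 42.8 and 52.8 RNA TPM (4.96 ± 0.28). Hist3h2a, not in the list, was higher still at 5.25 ± 0.38. What share of these ratios is owed to polyA selection was not tested. Noncoding RNAs gave no baseline without translation, since 0 of the 41 listed were in the set; Neat1 (651 and 736 RNA TPM), Malat1 (95.3 and 106) and Gas5 (148 and 155) were measured here in RNA only.

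**Figure D5:**
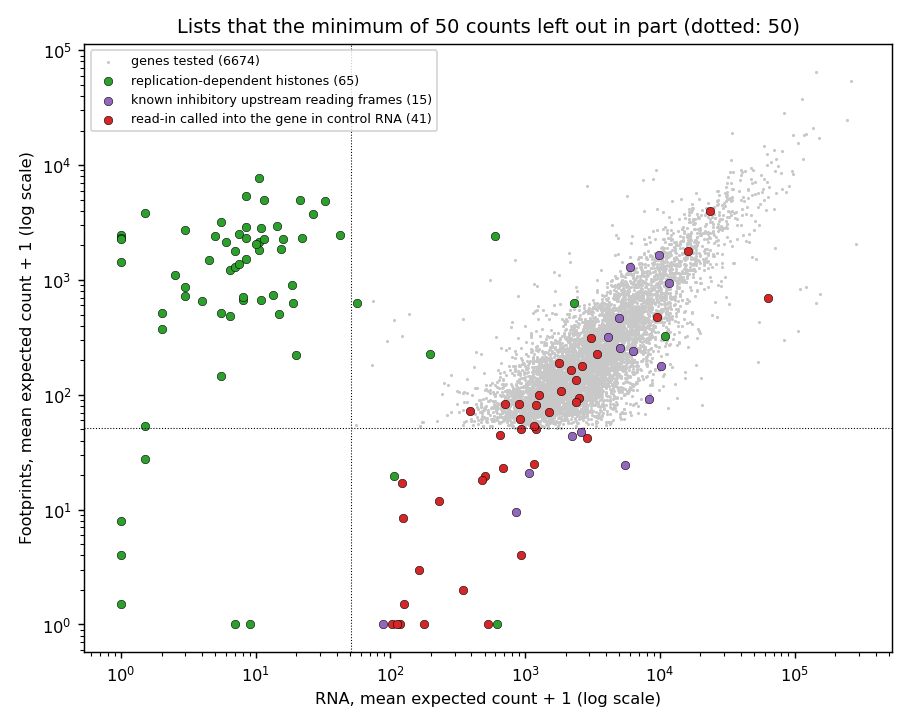
Mean footprint count against mean RNA count of each gene (each plus 1, log axes) for genes tested (grey) and 3 lists, with dotted lines at the minimum of 50. Histones gather at high footprints and low RNA, while several genes with called read-in and several genes with upstream reading frames lie under the footprint minimum.

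Read-in is RNA of an upstream gene that continues into its downstream neighbour. The authors' deposited table of read-in calls marked 41 downstream genes with footprint rows in at least 1 of the 2 control RNA libraries, and 21 of them were in the set, with a median of -0.44, 1 well and 4 poorly occupied (19.05%, against 13.5% of all genes), or 3 poorly occupied without length. Of the 13 genes in the set that were called in both control libraries, 0 were well and 1 was poorly occupied (7.69%). Their median was -0.46, so the higher share of poorly occupied genes was not seen among the calls made in both libraries. With the minimum in RNA alone, all 41 genes of the authors' deposited table were tested, 17 (41.5%) were poorly occupied and the median was -0.71. Of the 36 with any footprint count, 12 (33.3%) were poorly occupied, against 17.7% of all genes with any, and their median was -0.28. Among 4113 downstream genes that the authors' deposited table did not call, 787 (19.1%) were poorly occupied and the median was -0.09, beside 18.3% of all genes. Sap25, a subunit of the Sin3 complex, had 0 footprint counts in both libraries beside 591 and 465 RNA counts. Lime1, a membrane adaptor of lymphocytes, had 1 and 5 beside 1088 and 789, and Irf9, a factor of the interferon response, 48 and 34 beside 3104 and 2692 (-2.19 ± 0.17). Acrbp, Cfp, Il18bp and Tgfbr3l were likewise at 0 footprint counts in both libraries. Others on the list were not low, among them Cdkn2a, a cell cycle inhibitor (0.71), and Gabarap, an autophagy protein (0.58), both with the minimum in RNA alone. With the minimum in RNA alone a gene enters through its RNA, the side on which a low ratio is high, so the count under it is no support. The calls and the ratio use the same RNA libraries, so these measures are not independent, and these genes were picked after their values were seen.

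Class medians in the stress groups are set side by side without a test. These are medians of the log2 TPM ratio over the same genes relative to the median gene of each group, and all groups come from 2 libraries of each kind. The genes were included by their counts in the control alone, so control and stress values are not on an equal footing. The order below is control, H2O2 for 2 h, H2O2 for 7 h, KCl for 2 h and KCl for 7 h. Ribosomal protein genes were at 0.69, 0.61, -0.29, 0.70 and 0.44. The upstream reading frame genes were at -0.02, -0.73, -0.71, -1.24 and -0.65, and the mitochondrially encoded genes at -4.38, -4.69, -4.97, -4.17 and -4.19. Immediate early genes were at 1.12, 0.73, 0.72, 1.02 and 0.30. ER chaperones lay between 0.61 and 1.00, and polyamine genes between -0.78 and -0.45.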

How the data were processed

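Expected counts per gene were deposited by the authors as whole numbers for each library, and TPM values, which divide by length and sum to about 1000000, were deposited by the authors for the same libraries. File names attribute both to RSEM; STAR, RSEM, Bowtie and mm10 are named, without versions or roles, per the submitters' processing notes. RNA was polyA-selected, per the labels. A deposited table of read-in calls and one of read-in estimates (a ratio per gene pair, deposited without its formula) came from the authors; only the calls gave results. Another 12 columns had names of no labelled sample and were left out.

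Footprints were compared with RNA by edgeR 4.0.16 (R 4.3.3), quasi-likelihood F test on the expected counts of the 4 control libraries, with an offset of TMM and of the length implied per gene and library (expected count divided by TPM), and Benjamini-Hochberg adjustment over the 6674 genes. Well or poorly occupied means an adjusted p under 0.05 and a log2 ratio of at least 1 or at most -1. Standard errors were derived from the F statistic. The procedure was tested on simulated counts. Alternatives used DESeq2 1.42.0, limma 3.58.1 (voom, or log2 of TPM plus 1 or 0.1), other count minimums, other scalings, the heat control RNA, and each replicate left out. With 1 replicate left out, the test takes its spread from the 2 libraries of the other kind alone. Calls from such fits are therefore not on an equal footing with those of all 4 libraries. Genes just inside the minimum include Hras (51 and 50 footprint counts) and just outside Ost4 (85 and 49).

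The count minimum, the gene classes and the preset genes were chosen with earlier results of these data known, and mitochondrial symbols were set to those in the files. Named genes are the 8 highest and 8 lowest called protein-coding genes with at least 10 TPM in RNA and all library pairs on 1 side of the median gene, the highest and lowest member of each class, and a preset list. Symbols were matched to the RefSeq table of GRCm38.p6, where 6669 of 6674 were protein-coding and 174 matched by synonym. Protein length and finger motifs, intended beforehand, were not analysed here. Results for some genes are not reported here.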

Additional observations from a re-analysis of the deposited data

How the results depend on the processing

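The counts of well and poorly occupied genes (809 and 904) stayed within 1.5 times of these under DESeq2's size factors or Wald test, voom, the heat control RNA, summed synonyms, 1000 counts in RNA only (chosen after seeing the data; 837 and 1164) and with each replicate left out (818 to 861 and 877 to 950). They moved further when composition was not corrected (396 and 1812 on TPM shares, 371 and 1732 by limma on log2(TPM + 1), 390 and 1828 with 0.1 in place of 1), where the centre moves by construction. They also moved with the minimum, to 1309 and 1504 at 10 counts (9496 genes), 320 and 291 at 200 (2934 genes), 1487 and 1984 at 50 in RNA only (10837 genes) and 1606 and 2258 at 1 in RNA only (13397 genes). By adjusted p alone the counts were 2085 higher and 2238 lower. With the replicate block the counts were 803 and 912; same-numbered footprint and RNA libraries deviated together at r = 0.17 over 2 pairs, and the labels do not say that numbers mark a shared culture.

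Of 551 class medians taken relative to the median gene under alternatives, 20 turned sign. A further 196 were scored as moved without a change of sign, and 335 as the same. Without length the medians that turned sign were cholesterol synthesis (-0.038), upstream reading frames (0.042), iron-responsive elements (0.21), DNA replication (0.21), mitosis (0.15) and cleavage and polyadenylation (0.14). At 200 counts they were aminoacyl-tRNA synthetases (-0.038) and lysosomal genes (-0.0451). At 50 in RNA only they were DNA replication (0.00718) and cleavage and polyadenylation (0.10), and at 1 in RNA only selenoproteins (0.0590), DNA replication (0.063), mitosis (0.033), polyamine genes (0.044) and cleavage and polyadenylation (0.15). At 1000 in RNA only they were upstream reading frames (0.016) and cleavage and polyadenylation (0.16), with the heat control RNA the same 2 classes (0.17 and 0.15), and with synonyms summed selenoproteins (0.29). Of 1905 values of named genes 6 turned sign, all without length: Hsd17b7 (-0.18), Npc2 (-0.42), Zfp706 (-1.63), Cpsf6 (-0.15), Tmsb4x (-1.87) and Tmsb10 (-1.89). A further 50 lost and 46 gained a call. The cause of these changes was not tested. Of genes with enough RNA, 4163 had under 50 footprint counts in a library and were not tested; low depth and low occupancy cannot be told apart there.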
